A study of Mus musculus with 9 samples.

Results

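The nuclear receptors for thyroid hormone and for retinoids, with a pair of retinoid-handling proteins, were examined in sorted mouse skin cells of 2 Flg genotypes. The 9 genes are Thra and Thrb (thyroid hormone receptors), Rara, Rarb and Rarg (retinoic acid receptors), Rxra and Rxrb (retinoid X receptors), Crabp2 (a retinoic acid carrier) and Dhrs3 (a retinaldehyde reductase). They were taken by symbol from a table of 49671 genes, and all 9 passed the filter on low counts, as did 18435 genes in all. The genes were selected on their CPM (counts per library scaled to its size) in wt/wt against ko/ko, with that result already known for Thra, so every genotype value of these 9 genes is a description.

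RNA came from 5 wt/wt and 4 ko/ko samples, where the genotype is that of Flg, the filaggrin gene of the cornified epidermis. All 9 samples were epidermal preparations sorted as CD45- CD49f+, that is, lacking the leukocyte antigen CD45 and carrying the integrin alpha-6 chain, and no treatment is named. The sources used here name no strain, age or sex, and do not describe the ko allele. Each sample has an identifier of its own, but the labels do not say that samples are separate animals, so p-values measure the spread between these samples.

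Thyroid hormone and retinoic acid receptors act as ligand-controlled transcription factors. Each pairs with a retinoid X receptor on DNA, where it holds corepressors without ligand and recruits coactivators once ligand is bound. Retinoic acid is made from retinol through retinaldehyde, is carried in the cell by CRABP proteins and is degraded by CYP26 enzymes. In the epidermis RARG and RXRA are the chief retinoid receptors, and retinoids and thyroid hormone both affect keratinocyte growth and the hair cycle.

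The element that these receptors bind is shown first, because it is what links the receptors to their target genes. It is a direct repeat of a core whose classical form is AGGTCA. Each core was searched as AGGTCA, as the variant form AGTTCA, as GGGTCA, which differs in its first base, or as the form GGTTCA. The search ran on both strands with spacers of 2, 4 or 5 bases in RefSeq promoter windows (GRCm38.p6, 250 bases before to 50 after the start). Of the 9 genes 7 had a window. With a spacer of 5, the spacing classically bound by RAR and RXR, the repeat occurred in 0.0974% of 32851 windows of 300 bases. Among the receptor genes it was found in Rarb, and among the other pathway genes described here in Cyp26a1. With spacers of 2 or 4 it was found in no window of these genes, against 0.268% and 0.0822% of all windows. The 100 bases before each start follow, with the repeated cores in capitals; in Cyp26a1 they lie on the opposite strand.
Rarb, chr14:16575477-16575576, minus strand: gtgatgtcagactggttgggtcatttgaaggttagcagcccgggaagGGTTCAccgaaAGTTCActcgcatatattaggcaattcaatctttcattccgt
Cyp26a1, chr19:37697708-37697807, plus strand: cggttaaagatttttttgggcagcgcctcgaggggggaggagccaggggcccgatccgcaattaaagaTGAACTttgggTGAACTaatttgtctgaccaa
The Rarb repeat runs from -53 to -37 and the Cyp26a1 repeat from -32 to -16, counted from the RefSeq start. A match of letters is a description of the sequence and not a measurement of binding.

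Libraries held 15601859 to 23200440 counts, and 1 count equals 0.0431 to 0.0641 CPM before adjustment. CPM below use library sizes adjusted by TMM. Flg itself had 0 to 6 counts per library, too few to check the genotype labels. The cells were labelled epidermal, but 7 fibroblast markers summed to 26686 to 61648 CPM per library and 7 basal keratinocyte markers to 1354 to 2929 CPM. Most of the fibroblast sum came from Gsn and Dcn, with wt/wt means of 23643 and 15923 CPM. The other fibroblast markers had wt/wt means of 75.3 to 2291 CPM. The 3 libraries with the lowest fibroblast sum were wt/wt replicate 2, wt/wt replicate 1 and ko/ko replicate 1. Myeloid markers (7 genes) summed to 3.05 to 29.0 CPM in wt/wt and to 180.3, 215.6, 89.6 and 4.69 CPM in ko/ko replicates 1 to 4. No defining marker of these lists was at 0 over all libraries. In such bulk samples, fewer cells of a type and less RNA per cell cannot be told apart.

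On the length-scaled level (CPM per kb of exon), Rarg was the most abundant of the 9 genes, with a median of 21.6 over 9 libraries and a range of 15.5 to 39.8. Dhrs3 followed at a median of 12.7 CPM per kb, Thra at 11.1 and Crabp2 at 9.68. Rxra (6.15), Thrb (4.88), Rxrb (3.86) and Rara (2.61) formed the lower part, and Rarb was last at 0.775 CPM per kb. Rarg lay above Dhrs3 in 9 of 9 libraries, and Rara above Rarb in 9 of 9. The other neighbours in this order changed places in at least 1 library: Dhrs3 was above Thra in 5 of 5 wt/wt and in 0 of 4 ko/ko libraries. The ranges over the 9 libraries overlapped for every pair of neighbours.

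**Figure D1:**
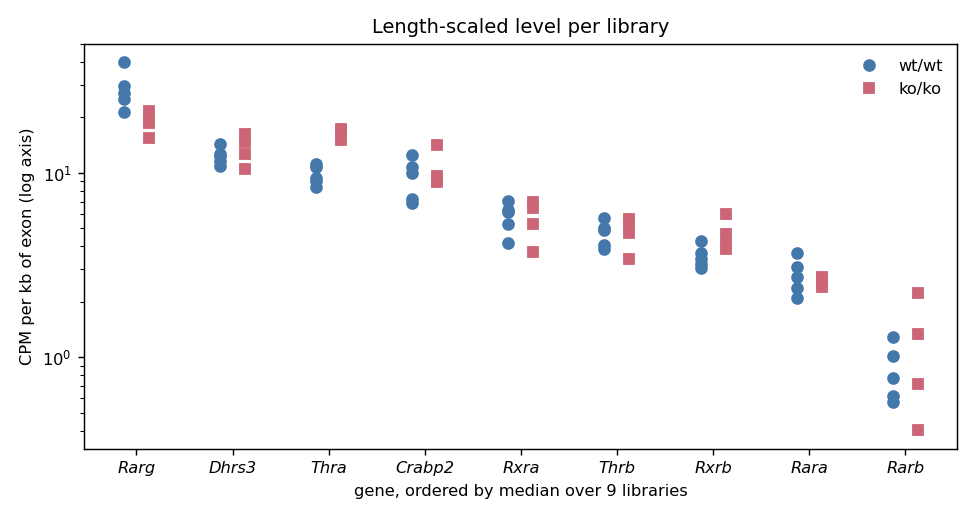
Length-scaled level of each gene (CPM per kb of exon, log axis), with 1 point per library, circles for wt/wt and squares for ko/ko, and genes ordered by their median over 9 libraries. Rarg is highest (median 21.6) and Rarb lowest (0.775), and Thra is the gene whose ko/ko points all lie above its wt/wt points.

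Of the thyroid hormone receptors, Thra was higher in every ko/ko library than in every wt/wt library, while the ranges of Thrb overlapped. Thra (ENSMUSG00000058756, mm10 chromosome 11, 98740638 to 98769006, plus strand) encodes a hormone-binding receptor and a splice variant that does not bind hormone. It had 51.3, 43.3, 49.7, 41.5 and 38.5 CPM in wt/wt replicates 1 to 5 and 80.2, 77.4, 69.6 and 75.6 CPM in ko/ko replicates 1 to 4. The lowest ko/ko library was thus above the highest wt/wt library. The wt/wt mean was 44.9 ± 5.47 CPM (SD, n = 5) and the ko/ko mean 75.7 ± 4.48 CPM (SD, n = 4), and ko/ko was higher by 0.76 on the log2 scale (SE 0.13). Among all genes tested, 6.28% had no overlap between genotypes and 3.5% lay wholly higher in ko/ko. Scaled by library size alone, the median log2 fold change of all genes moved up by 0.11, so on that scaling the Thra value of 0.86 is read against the shift.

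Thrb (ENSMUSG00000021779, chromosome 14, 17660960 to 18038088, plus strand), the receptor of the pituitary and liver hormone response, had 37.6, 32.0, 33.1, 26.8 and 25.5 CPM in wt/wt and 22.3, 34.5, 36.8 and 31.0 CPM in ko/ko. Its log2 fold change was 0.01 (SE 0.18), and the lowest library was ko/ko replicate 1. The Thra to Thrb count ratio, which does not depend on library scaling, was 1.35 to 1.55 in wt/wt and 1.89 to 3.60 in ko/ko. Expressed as a share of the summed length-scaled level of both receptors, Thra made up 67.4 ± 1.36% (SD, n = 5) in wt/wt and 77.6 ± 4.50% (SD, n = 4) in ko/ko. The shares did not overlap, at 65.8% to 68.7% against 72.9% to 83.7%.

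The last exons of Thra and Nr1d1, the REV-ERB alpha gene of the circadian clock, share 263 bases on opposite strands (chromosome 11, 98768157 to 98768419). That stretch is 5.70% of the Thra exon length, and no source states how strand was handled, so reads in it cannot be assigned. Per kb of exon, Nr1d1 averaged 84.5 CPM in wt/wt and 74.7 CPM in ko/ko, and Thra 9.72 and 16.4 CPM. The share of Thra counts that comes from the stretch can thus exceed its share of length, and was not measured. For Nr1d1 the genotypes overlapped: it had 242, 171, 257, 316 and 313 CPM in wt/wt and 257, 188, 216 and 258 CPM in ko/ko. Its ko/ko level differed from wt/wt by -0.18 on the log2 scale (SE 0.19), with an adjusted p of 0.698 by edgeR. No other gene of the 9 shared exon bases with another gene of the table. Counts per gene also cannot separate the hormone-binding product of Thra from its splice variant.

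The myeloid marker sum was above every wt/wt library in 3 of 4 ko/ko libraries, and Thra was 75.6 CPM in ko/ko replicate 4, where those markers summed to 4.69 CPM. Ptprc, the gene of the sort antigen CD45, had 0.0508 to 0.862 CPM in wt/wt. In ko/ko replicates 1 to 4 it had 7.14, 1.58, 1.87 and 0.908 CPM, without overlap (log2 fold change 2.72, SE 0.80). The other myeloid markers overlapped. All 7 had positive log2 fold changes, and DESeq2 called 6 as higher, against 2.53% of all genes. Without the 3 libraries of lowest fibroblast sum, the Thra log2 fold change was 0.78 (SE 0.14). Mitochondrial reads took 6.30% of counts in ko/ko replicate 1, 1.81% to 2.01% in the other ko/ko libraries and 2.77% to 7.55% in wt/wt. Thra was 80.2 CPM in that first library and 69.6 to 77.4 CPM in ko/ko replicates 2 to 4. Other markers also differed between genotypes, and are named here after their values were seen. Lyve1, a marker of lymphatic endothelium, averaged 160.8 CPM in wt/wt and 52.0 CPM in ko/ko without overlap. The other endothelial markers overlapped, with log2 fold changes of -0.11 (Pecam1), 0.38 (Cdh5), 0.07 (Kdr) and 0.46 (Tek). Krt1, a suprabasal keratin, averaged 4.97 and 10.3 CPM, also without overlap. The suprabasal markers did not share a direction, with 3 of 5 log2 fold changes positive. Sbsn was lower in ko/ko without overlap (43.3 and 32.8 CPM), and Krtdap averaged 115.8 and 86.3 CPM. Krt10 and Dsg1a had log2 fold changes of 0.08 and 0.59 and overlapped. Itga6, the gene of the sort antigen CD49f, averaged 53.3 and 82.7 CPM, with overlap (wt/wt up to 66.2 CPM, ko/ko from 63.8 CPM). The other basal keratinocyte markers overlapped too. Their log2 fold changes were -0.11 (Krt5), 0.07 (Krt14), 0.54 (Krt15), 0.18 (Itgb4), 0.27 (Col17a1) and 0.14 (Trp63). By edgeR the adjusted p was 0.0951 for Lyve1, 0.154 for Krt1 and 0.157 for Itga6. The part of cell make-up and RNA quality in the differences of Thra, Rarg and the pathway genes was not tested.

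**Figure D2:**
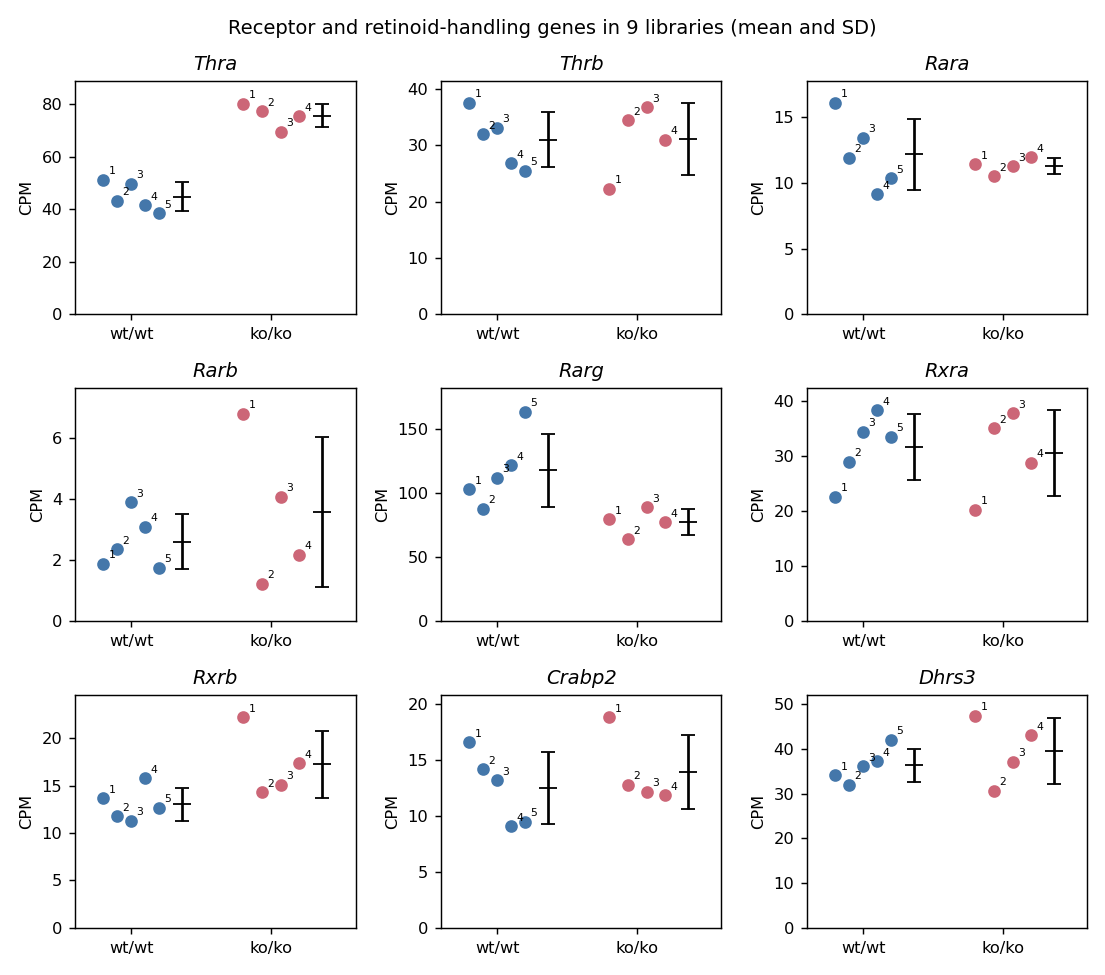
CPM of the 9 genes in each library (points, numbered by replicate) with the mean and SD of each genotype (bar), each panel on its own axis from 0. Thra separates the genotypes (38.5 to 51.3 against 69.6 to 80.2 CPM), Rarg overlaps by a small margin in the opposite direction, and the other 7 genes overlap.

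Of the retinoic acid receptors, Rarg had its higher values in wt/wt, Rara was level and Rarb was low and scattered. Rarg (ENSMUSG00000001288, chromosome 15, 102234938 to 102257517, minus strand), the chief RAR of epidermis, had 102.9, 87.6, 111.8, 121.4 and 163.3 CPM in wt/wt. In ko/ko it had 79.4, 63.7, 88.6 and 76.9 CPM. The genotypes overlapped only through wt/wt replicate 2, which lay below ko/ko replicate 3, and wt/wt replicate 5 was the highest library. Means were 117.4 ± 28.5 CPM (SD, n = 5) and 77.1 ± 10.3 CPM (SD, n = 4), and the log2 fold change was -0.60 (SE 0.19). It was -0.46 without wt/wt replicate 5 and -0.79 without the 3 libraries of lowest fibroblast sum.

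Rara (ENSMUSG00000037992, chromosome 11, 98927818 to 98974942, plus strand), the widely expressed RAR, ran from 9.14 to 16.1 CPM in wt/wt and from 10.5 to 11.96 CPM in ko/ko, with a log2 fold change of -0.11 (SE 0.19). Rarb (ENSMUSG00000017491, chromosome 14, 16430842 to 16575472, minus strand), whose promoter holds the repeat printed above, is the RAR gene that retinoic acid itself switches on. It had 1.88, 2.35, 3.90, 3.10 and 1.74 CPM in wt/wt and 6.79, 1.22, 4.07 and 2.17 CPM in ko/ko. The ko/ko group held both the highest and the lowest Rarb library. These values rest on 265 counts summed over wt/wt libraries and 275 summed over ko/ko libraries, and the log2 fold change of 0.46 had an SE of 0.47. Without the 3 libraries of lowest fibroblast sum, ko/ko replicate 1 among them, it was -0.23.

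Cyp26a1, the retinoic acid hydroxylase gene whose promoter holds the other printed repeat, stood far above Rarb. It had 171, 100.05, 187, 202 and 211 CPM in wt/wt and 137, 233, 150.1 and 198 CPM in ko/ko, with a log2 fold change of 0.05 and an edgeR adjusted p of 0.943. Per kb of exon, Cyp26a1 averaged 98.2 CPM in wt/wt and Rarb 0.855 CPM. The genotypes overlapped for both genes.

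As a share of the summed length-scaled level of the 3 RAR genes, Rarg made up 88.2 ± 3.41% (SD, n = 5) in wt/wt and 83.4 ± 2.31% (SD, n = 4) in ko/ko. Its share ran from 85.3% to 93.1% and from 79.9% to 84.7%, without overlap by a narrow margin, although the CPM of Rarg overlapped. The lowest Rarg share was in ko/ko replicate 1. How often such shares separate the genotypes in other gene families was not examined, for Rarg or for Thra. The Rara share was 5.56% to 12.6% in wt/wt and 10.1% to 13.1% in ko/ko. The Rarb share reached 9.26% in ko/ko replicate 1 and was at most 5.26% in the other libraries. Rarg was thus the main RAR transcript in every library of both genotypes.

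**Figure D3:**
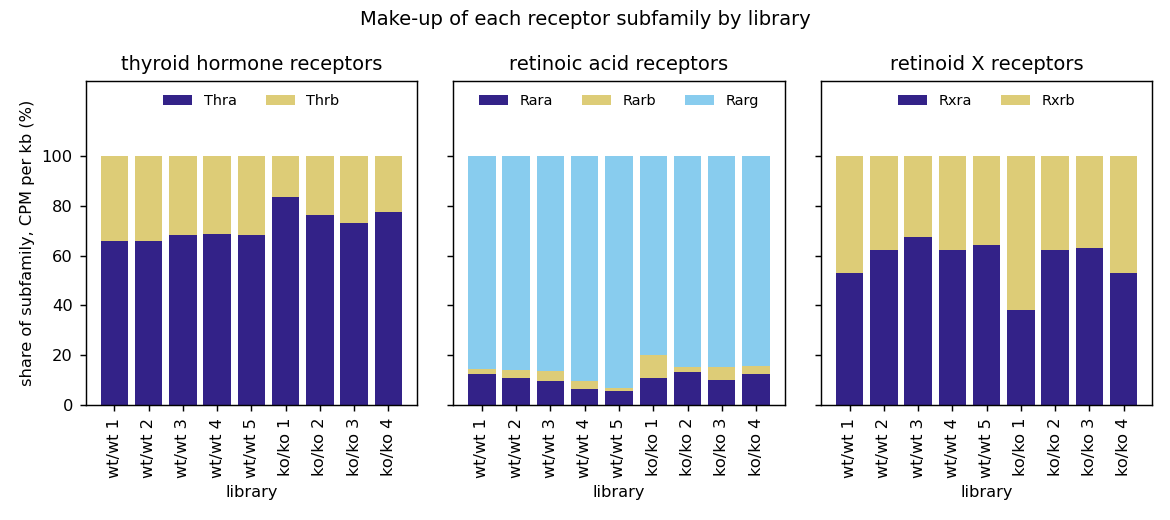
Share of each gene in the summed CPM per kb of its receptor subfamily (stacked bars, percent), 1 bar per library. The Thra share is 65.8% to 68.7% in wt/wt and 72.9% to 83.7% in ko/ko, the Rarg share is above 79% everywhere, and the Rxra share is lowest in ko/ko replicate 1 (38.2%).

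The retinoid X receptors are the shared partners of both receptor families. Rxra (ENSMUSG00000015846, chromosome 2, 27676440 to 27762957, plus strand) had 22.7, 29.0, 34.5, 38.4 and 33.6 CPM in wt/wt and 20.3, 35.1, 37.9 and 28.8 CPM in ko/ko. The lowest library of each genotype was replicate 1, and the log2 fold change was -0.05 (SE 0.21). Rxrb (ENSMUSG00000039656, chromosome 17, 34031812 to 34038393, plus strand), the broadly expressed RXR, had 13.6, 11.8, 11.3, 15.7 and 12.7 CPM in wt/wt and 22.2, 14.3, 15.1 and 17.4 CPM in ko/ko. Its ko/ko values overlapped the upper wt/wt values, and ko/ko replicate 1 was the highest. It differed by 0.40 on the log2 scale (SE 0.18), and by 0.26 without ko/ko replicate 1. Rxra made up 52.9% to 67.4% of the summed length-scaled level of both genes in wt/wt and 62.4%, 62.9% and 52.9% in ko/ko replicates 2 to 4. In ko/ko replicate 1 the order was turned, with Rxra at 38.2% and Rxrb at 61.8%.

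Crabp2 and Dhrs3 handle retinoids upstream of the receptors and overlapped between genotypes. Crabp2 (ENSMUSG00000004885, chromosome 3, 87948666 to 87953376, plus strand) brings retinoic acid to RAR. It had 16.6, 14.2, 13.2, 9.09 and 9.49 CPM in wt/wt and 18.8, 12.8, 12.2 and 11.9 CPM in ko/ko. Replicate 1 was the highest library in either genotype, and the log2 fold change was 0.15 (SE 0.23), and -0.03 without ko/ko replicate 1. Dhrs3 (ENSMUSG00000066026, chromosome 4, 144892827 to 144928209, plus strand), which returns retinaldehyde to retinol and is itself induced by retinoic acid, ran from 32.0 to 42.0 CPM in wt/wt. It ran from 30.6 to 47.4 CPM in ko/ko, with ko/ko replicate 1 again the highest, and the log2 fold change was 0.12 (SE 0.16).

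The spread within a genotype differed among the 9 genes. The pooled SD of log2 CPM around the genotype means was lowest for Thra, at 0.14, and highest for Rarb, at 0.79. Once the genotype means were removed and each gene was scaled to an SD of 1, the most alike pair of the 9 genes was Thra with Rara, with a root mean square difference of 0.654 over 9 libraries. Thra and Crabp2 followed at 0.665, while the least alike pair was Rxra with Crabp2, at 1.91. Among all genes tested, the genes nearest to Thra by this measure were Gm16170 (0.250), Uso1 (0.342), Bag3 (0.345), Grb10 (0.349) and Maff (0.361). The median over all other genes was 1.42. The nearest genes were picked as the smallest values, so their place below that median follows from the choice. Gm16170, a predicted gene, averaged 0.216 CPM in wt/wt, so its likeness rests on few counts. Nearest to Rarg were Slc9a3r2 (0.250), Nlrx1 (0.266), Ubxn6 (0.280), Lrrc24 (0.306) and Eml3 (0.334).

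By edgeR's quasi-likelihood test over all genes, 0 of the 9 genes passed an adjusted p of 0.05, with adjusted p from 0.0951 (Thra) to 0.987 (Thrb). This test called 0.00542% of all genes. At an unadjusted p under 0.05 there were 3, Thra and Rxrb as higher and Rarg as lower in ko/ko. Of all genes 15.3% passed, 8.86% as higher and 6.42% as lower. DESeq2 called 1 of the 9, Thra, against 3.63% of all genes, and limma voom with quality weights called 2, Thra as higher and Rarg as lower, against 9.77% (6.6% higher and 3.17% lower). The 9 genes had a median log2 fold change of 0.12, with 6 positive, and all genes tested had a median of -0.03. Nothing is read from these counts, since the genes were chosen with this contrast in view.

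The other genes of both pathways were 68 genes in 8 lists, of which 60 passed the filter on low counts. None passed an adjusted p of 0.05 by edgeR's test over all genes (0 genes), which called 0.00542% of all genes. At an unadjusted p under 0.05 there were 7 higher and 4 lower, or 18.3% of those tested, close to the 15.3% of all genes, and 4 genes (6.67%) had no overlap against 6.28% of all genes. Their median log2 fold change was 0.16, with 66.7% positive against 47.4% of all genes. With the trend on exon length removed, their median was 0.05, with 33 of 60 positive. All genes tested then had a median of -0.10, with 7526 of 18435 positive. DESeq2 called 3 of the 58 it tested, against 3.63% of all genes, with Klf9 and Nr1h4 as higher and Aldh1a3 as lower. Voom with quality weights called 6 of 60, against 9.77% of all genes, with Klf9, Nr1h4, Ncor1, Ppard and Nrip1 as higher and Tgm2 as lower. Without the 3 libraries of lowest fibroblast sum, edgeR called 9, but 13.4% of all genes were then called.

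**Figure D4:**
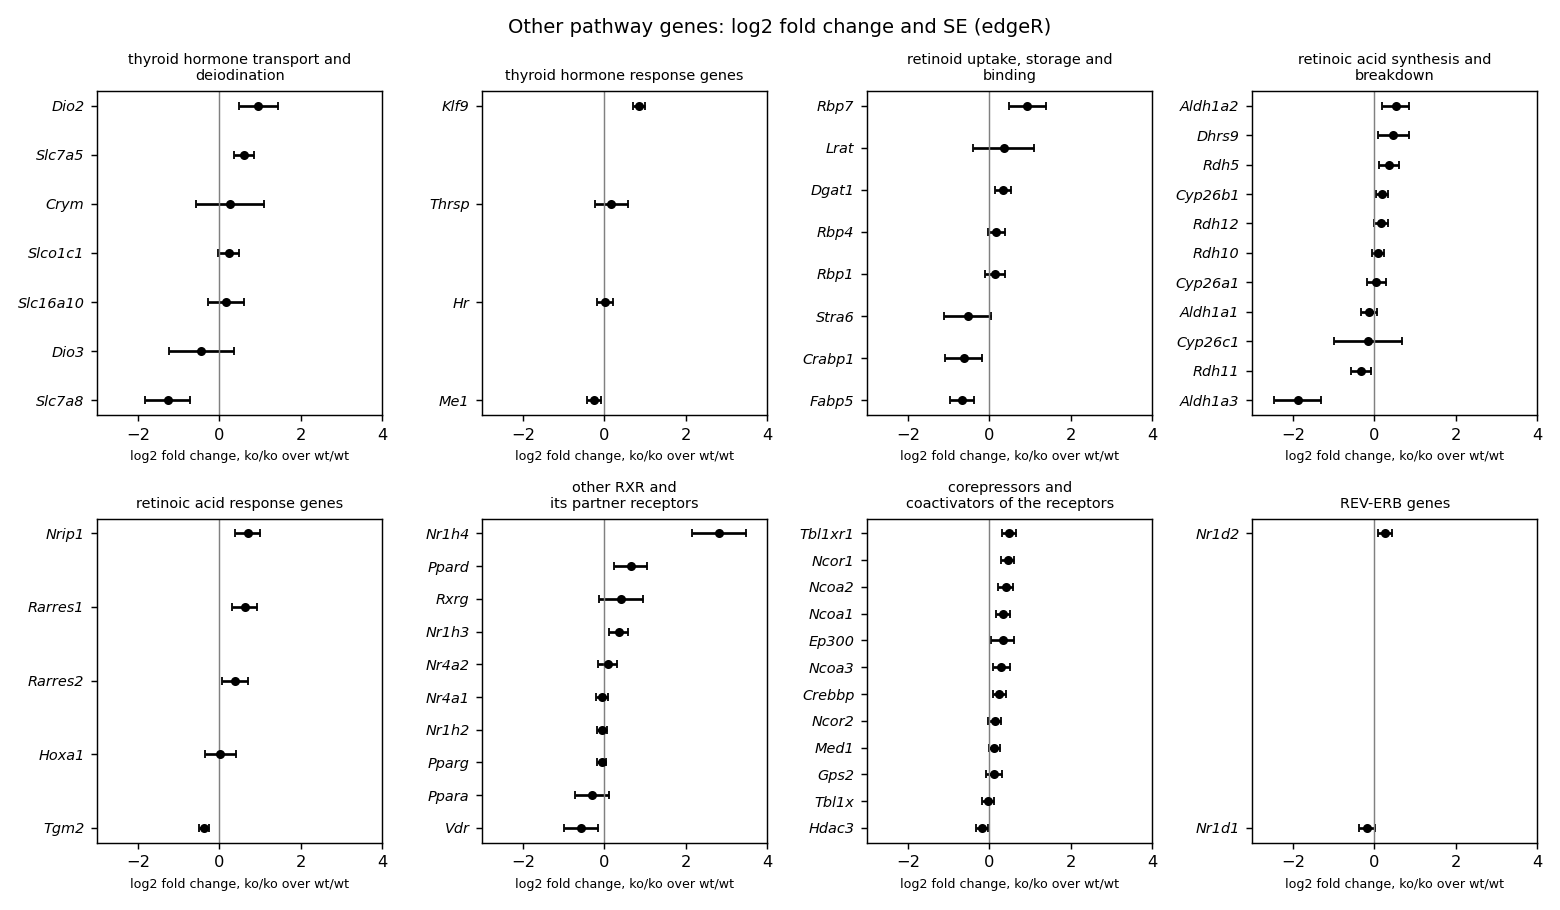
Log2 fold change of ko/ko over wt/wt (points) with its SE (bars) from edgeR for other pathway genes tested, in 8 lists. Most points lie within 1 of 0, Nr1h4 is the highest (2.81) and Aldh1a3 the lowest (-1.88), and none passed an adjusted p of 0.05.

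Thyroid hormone transport and deiodination genes had 8 of 9 members tested, 5 with positive log2 fold changes and a median of 0.19. Dio2, the deiodinase that activates the hormone, averaged 1.45 and 2.83 CPM, which is 0.96 on the log2 scale (SE 0.48) with an adjusted p of 0.368 by edgeR. Without ko/ko replicate 1, its highest library at 4.95 CPM, it was 0.55, and without the 3 libraries of lowest fibroblast sum 0.25. The amino acid and hormone transporter gene Slc7a8 had 24.3 CPM in wt/wt replicate 2, while the remaining wt/wt libraries had 3.85 to 5.99 CPM. On the log2 scale the difference was -1.27, and -0.40 without that library. Its relative Slc7a5 had 0.62 (SE 0.25), or 0.37 without ko/ko replicate 1, and Slco1c1, a thyroxine transporter, 0.23 (SE 0.27).

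Of 5 thyroid hormone response genes 4 were tested, and their median was 0.10. Klf9, a Krüppel-like factor induced by thyroid hormone and also by glucocorticoids, had 107, 71.6, 95.1, 85.5 and 77.3 CPM in wt/wt. In ko/ko it had 180.3, 139.7, 151 and 157 CPM, and the genotypes did not overlap. The log2 fold change was 0.85 (SE 0.15), with an edgeR adjusted p of 0.0951, above the threshold. The genotypes overlapped for the other response genes: Hr, the hairless corepressor, had 0.02 (SE 0.20), Thrsp, a lipogenic gene, 0.17 (SE 0.41), and Me1, malic enzyme, -0.25 (SE 0.17; -0.12 without ko/ko replicate 1). Nrgn was too low to be tested.

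Genes of retinoid uptake, storage and binding had 8 of 9 members tested, with 5 positive and a median of 0.16. Rbp4, the plasma retinol carrier, was abundant, with a wt/wt mean of 364 ± 76.5 CPM (SD, n = 5) and a ko/ko mean of 411 ± 93.5 CPM (SD, n = 4). Crabp1, the other retinoic acid carrier, had 11.1 and 14.5 CPM in wt/wt replicates 1 and 2 but 54.2, 46.7 and 59.9 CPM in replicates 3 to 5. In ko/ko it had 18.5, 30.5, 25.6 and 21.7 CPM. The log2 fold change was -0.63 (SE 0.45), and the edgeR adjusted p 0.533. It was -0.39 without wt/wt replicate 5. Without the 3 libraries of lowest fibroblast sum, which include those low wt/wt libraries, it was -1.04, with an edgeR adjusted p of 0.00532. The part of the cell make-up in these Crabp1 values was not tested. Fabp5, an alternative carrier that delivers retinoic acid to PPAR delta, had -0.68 (SE 0.29), and -0.38 without wt/wt replicate 2. Rbp7, a retinol-binding protein gene, had 0.93 (SE 0.45), but 0.31 without ko/ko replicate 1 and 0.27 by voom. Dgat1, which can esterify retinol, had 0.33 (SE 0.20), and 0.22 without ko/ko replicate 1.

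Genes of retinoic acid synthesis and breakdown had 11 of 12 members tested, with 7 positive and a median of 0.08. Aldh1a1, a retinaldehyde dehydrogenase, had means of 49.1 ± 12.7 CPM (wt/wt, SD, n = 5) and 45.0 ± 6.12 CPM (ko/ko, SD, n = 4). Aldh1a3, an epithelial enzyme of the same step, had 32.1 CPM in wt/wt replicate 2, and the remaining wt/wt libraries had 6.98 to 9.58 CPM. Its ko/ko values were 1.73, 1.99, 7.48 and 2.82 CPM, so that replicate 3 lay within the wt/wt range. The log2 fold change was -1.88 (SE 0.58) with an edgeR adjusted p of 0.194, and -1.22 without wt/wt replicate 2. Aldh1a2 had 0.53 (SE 0.33), the retinol dehydrogenase genes Rdh5 and Rdh11 had 0.35 (SE 0.24) and -0.34 (SE 0.25; -0.13 without ko/ko replicate 1), and Cyp26b1 averaged 102 and 116 CPM in wt/wt and ko/ko.

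Of 7 retinoic acid response genes 5 were tested, 4 with positive values and a median of 0.39. Tgm2, tissue transglutaminase, did not overlap between genotypes, with a wt/wt mean of 48.1 ± 4.13 CPM (SD, n = 5) and a ko/ko mean of 37.0 ± 1.11 CPM (SD, n = 4). The log2 fold change was -0.38 (SE 0.12) and the edgeR adjusted p 0.209. Rarres1 and Rarres2, named for their response to retinoids, had 0.62 (SE 0.32) and 0.39 (SE 0.31), and Nrip1, a nuclear receptor corepressor, had 0.70 (SE 0.31). Without the 3 libraries of lowest fibroblast sum, Rarres1 was at 0.00, Rarres2 at 0.03 and Nrip1 at 1.17. Leaving out ko/ko replicate 1 gave 0.30 for Rarres1, leaving out wt/wt replicate 2 gave 0.21 for Rarres2, and leaving out ko/ko replicate 3 gave 0.45 for Nrip1.

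Among the third RXR gene and the partner receptors of RXR, 10 of 12 were tested, 5 with positive values and a median of 0.01. Nr1h4, the bile acid receptor FXR, had 0.254 to 2.11 CPM in wt/wt and 13.1, 2.53, 4.26 and 5.65 CPM in ko/ko. Its ko/ko level differed by 2.81 on the log2 scale (SE 0.67), with an adjusted p of 0.140 by edgeR. It was 1.67 once the 3 libraries with most Gm10800 and Gm10801 reads were left out (ko/ko replicates 4 and 1 and wt/wt replicate 1). Those ko/ko replicates are also the libraries with most Nr1h4. Vdr, the vitamin D receptor of keratinocytes, had 60.4 CPM in wt/wt replicate 2, and the remaining wt/wt libraries had 18.9 to 24.2 CPM. This gave a log2 fold change of -0.57 (SE 0.41), which was -0.12 without that library and -0.95 without ko/ko replicate 3. Ppard had 0.64 (SE 0.41), which was 1.05 once wt/wt replicate 1 was left out and 0.41 once ko/ko replicate 1 was. Nr1h3, an oxysterol receptor, had 0.36 (SE 0.23). Pparg and Nr1h2 averaged 57.4 and 71.3 CPM in wt/wt and 54.7 and 68.2 CPM in ko/ko.

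Corepressors and coactivators had 12 of 12 members tested, 10 with positive values and a median of 0.27. Ncor1, the corepressor held by unliganded thyroid hormone and retinoic acid receptors, had a wt/wt mean of 107 ± 20.3 CPM (SD, n = 5) and a ko/ko mean of 145 ± 19.2 CPM (SD, n = 4). The log2 fold change was 0.45 (SE 0.17), with an adjusted p of 0.251 by edgeR, and 0.17 with the trend on exon length removed. Tbl1xr1, a subunit of the same complex, had 0.48 (SE 0.18), and the coactivator genes Ncoa2 and Ncoa1 had 0.40 (SE 0.18) and 0.33 (SE 0.17). These are long transcripts, and with the length trend removed Ncoa2 was at 0.06. The REV-ERB partner of Nr1d1, Nr1d2, averaged 100.3 and 119 CPM in wt/wt and ko/ko, with a log2 fold change of 0.25, or 0.11 without ko/ko replicate 2.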

How the data were processed

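Per the labels' protocols, polyadenylated RNA of CD45- CD49f+ cells went through SMART amplification and tagmentation. The authors deposited raw read counts per gene, made with GSNAP, featureCounts 1.6.2 and mm10, per the submitters' processing notes. Exon length is another deposited column. Handling of strand, multi-mapped reads and duplicates is not given in the sources used here.

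Of 49763 rows, 92 spike-in rows were left out. Symbols came from GENCODE mouse M21 by identifier (49326 of 49671 matched). Genotypes were compared with edgeR 4.0.16 in R 4.3.3 (filterByExpr, TMM, robust quasi-likelihood F test, two-sided, Benjamini-Hochberg, threshold 0.05), after a test on simulated data. Each SE was derived from the fold change and its F statistic. Alternatives were RLE or no factors, other filters, DESeq2 1.42.0, voom with quality weights (limma 3.58.1), removal of a loess trend (span 0.3) on exon length, and left-out libraries. The set without the 3 libraries lowest in fibroblast markers was chosen after seeing the data.

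The 9 genes and the lists were chosen with earlier results of these data known. The text names all 9, up to 4 genes of smallest p per list, Nr1d1, and the 5 genes nearest to Thra and to Rarg. A further pathway gene is counted in its list but not reported here. Other pathway genes (Rbp4, Aldh1a1, Cyp26a1, Cyp26b1, Pparg, Nr1h2 and Nrgn) were picked after their values were seen. Marker lists for 8 cell types gave summed CPM, of which those of suprabasal (149 to 258), endothelial (158 to 379), mural (123 to 397), melanocyte (213 to 587) and Schwann cells (149 to 517) have overlapping genotype ranges. Replicate numbers follow accession order.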

Additional observations from a re-analysis of the deposited data

Results flagged for a closer look

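A single library far from the rest of its genotype in log2 CPM was looked for in 78 gene and genotype pairs. There were 8. A chance rate of 1 in 20 would give 3.9, but that rate holds for independent genes that were not selected. These genes were chosen with results of these data known and come from the same libraries, so nothing is read from the comparison. In ko/ko replicate 1, Crabp2 was at 4.24 log2 CPM (18.8 CPM, and 11.9 to 12.8 CPM in the remaining ko/ko libraries). Slc7a5 was at 3.93 there (15.2 against 8.53 to 8.998 CPM), and Rdh11 was low at 4.54 (23.2 against 48.7 to 53.9 CPM). In wt/wt replicate 2, Slc7a8 was at 4.61 (24.3 against 3.85 to 5.99 CPM), Aldh1a3 at 5.005 (32.1 against 6.98 to 9.58 CPM) and Vdr at 5.92 (60.4 against 18.9 to 24.2 CPM). That library also had the highest basal keratinocyte marker sum, 2929 CPM, whose part in these values was not tested. In wt/wt replicate 1, Nr1h3 was low at 2.05 (4.11 against 6.49 to 7.39 CPM) and Nr1d2 low at 6.23 (74.9 against 101.2 to 113 CPM).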

How the results depend on the processing

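Over 18 alternatives, Thra (0.71 to 0.86), Rarg (-0.79 to -0.46) and Rxrb (0.19 to 0.53) kept the sign of their log2 fold change, while the other 6 receptor and carrier genes changed sign in at least 1; the edgeR, DESeq2 or voom adjusted p of Thra ran from 5.8e-05 to 0.278. Of the 9 genes, DESeq2 called 1, and voom and the fit without the 3 libraries lowest in fibroblast markers each called 2. Of the other pathway genes these fits called 3, 6 and 9. Of all genes, edgeR called 1, against 4 by library size, 28 without a filter, 630 with DESeq2, 1802 with voom, 0 with the length trend removed, 7 without the 3 libraries richest in Gm10800 and Gm10801, and 2420 without the 3 lowest in fibroblast markers. Leaving out single libraries gave 0 to 12, with 12 without ko/ko replicate 4. The cause of these changes was not tested. Of 30 named pathway genes 25 kept their sign. Signs turned for Slco1c1 (-0.054 to 0.37 over single left-out libraries, lowest without ko/ko replicate 2), Thrsp (-0.081 to 0.45, below 0 without ko/ko replicate 1 and without wt/wt replicate 2), Hr (-0.017 without filter, -0.088 with the length trend removed, -0.093 to 0.14 over single left-out libraries, below 0 without wt/wt replicates 4 or 5 or ko/ko replicates 1 or 3), and, without the 3 lowest in fibroblast markers, Thrsp (-0.048), Rarres1 (-0.0022) and Vdr (0.10). No paired analysis was run, because the labels used here give no link between a wt/wt sample and a ko/ko sample.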
